A study of Mus musculus with 12 samples.

Results

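The comparison described here is that of Srrm2-KD and Gl2-KD cells at 72 h, which takes 6 of the 12 polyA+ RNA-seq libraries of the study, chosen by the time point in their labels. The cells were the male mouse embryonic stem cell line E14tg2a.4, a wild-type clone that self-renews in medium with the cytokine LIF. Srrm2-KD cells received 50 nM siRNA duplexes against *Srrm2* and Gl2-KD cells the same amount against firefly luciferase (Gl2), a gene that mouse cells lack. Both received the same duplexes again after 24 h, were kept in serum-free ESGRO medium with LIF and were harvested at 72 h after seeding. Each siRNA was used in 3 numbered experiments, so each group had 3 libraries (n = 3). Knockdown by siRNA leaves part of the transcript in place, and all libraries came from 1 cell line. The other 6 libraries, harvested at 24 h, are used only for the comparison of the time points.

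*Srrm2* encodes a large serine- and arginine-rich protein that forms the core of nuclear speckles, the bodies in which splicing factors gather, and that joins the spliceosome. Mouse embryonic stem cells pass from a naive state, kept by LIF and factors such as *Esrrb* and *Tfcp2l1*, through a formative state marked by *Otx2* and the de novo DNA methyltransferases, before they commit to a lineage. In the same cells, matrix, keratin and actin genes vary with attachment and with early differentiation.

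The 6 libraries held 73933196 to 153343831 estimated counts, with the 2 lowest totals in Srrm2-KD of experiments 2 and 3. Levels are given as CPM, the counts scaled to a common library size. The first principal component, with 52.5% of the variance, separated the experiments in both groups. Srrm2-KD of experiment 2 stood apart on the second component (21.4% of the variance), at -91.3 against 0.96 to 35.1 in the other libraries. The summed level of 10 embryonic stem cell markers was 5993 to 7911 CPM in Gl2-KD and 5185 to 7512 CPM in Srrm2-KD. None of the 10 was called changed, although 4 of them were lower at an unadjusted p below 0.05. *Pou5f1*, the core pluripotency factor, had 1219, 1621 and 1513 CPM in Gl2-KD and 1146, 1603 and 1359 CPM in Srrm2-KD of experiments 1, 2 and 3. Of 9 fibroblast markers, *Col1a1*, *Col1a2*, *Col3a1*, *Dcn*, *Lum* and *Postn* stayed under 1 CPM in all 6 libraries, as did *Gata6*, *Pdgfra*, *Sox17* and *Foxa2* of the 6 primitive endoderm markers. In bulk RNA, fewer cells of a type and less RNA per cell cannot be told apart.

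*Srrm2* itself was lower in Srrm2-KD in each experiment. Its level was 958, 472 and 435 CPM in Gl2-KD and 460, 180 and 214 CPM in Srrm2-KD of experiments 1, 2 and 3. The groups overlapped, because Srrm2-KD of experiment 1 lay between the Gl2-KD libraries of experiments 2 and 3, while within each experiment the knockdown library held less than its control. With the experiment as a block, edgeR's quasi-likelihood test gave a log2 fold change of -1.16 ± 0.10 (SE, n = 3, adjusted p = 0.0092), which leaves 44.8% of the control level. The gene lies on the plus strand of chromosome 17 at 23790532 to 23824741 (GRCm38).

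The microRNA gene *Mir5125* lies in an intron near the 3′ end of *Srrm2*, on the same strand, and fell with it. Its hairpin and the mature miR-5125, whose seed (bases 2 to 8) is in capitals, are shown because this gene lies inside the one that the siRNA targeted:
Mir5125 hairpin, chr17:23823291-23823369: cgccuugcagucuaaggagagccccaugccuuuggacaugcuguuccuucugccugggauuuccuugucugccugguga
miR-5125, chr17:23823339-23823358: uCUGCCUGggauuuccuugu
Both sequences are RefSeq's on GRCm38. *Mir5125* had 5.42, 7.66 and 9.31 CPM in Gl2-KD and 1.52, 2.22 and 2.35 CPM in Srrm2-KD, so that every Srrm2-KD library lay below every control. The log2 fold change was -1.87 ± 0.16 (adjusted p = 0.0082). Reads of the miRNA gene and of its host transcript cannot be told apart in these counts.

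Across the 18156 genes tested at 72 h, 323 (1.78%) passed an adjusted p of 0.05 after Benjamini-Hochberg correction and are referred to as called, of which 87 were higher in Srrm2-KD (0.479%) and 236 lower (1.30%). The median log2 fold change of all genes tested was -0.02. Genes moved the same way in all 3 experiments more often than they were called: 3568 genes (19.7%) were higher and 4245 (23.4%) lower in each. Every Srrm2-KD library lay above every Gl2-KD library for 562 genes (3.10%) and below for 652 (3.59%). Of the called genes, 86 of the 87 higher and all 236 lower ones moved the same way in all 3 experiments, and 103 of the 323 changed by at least 1 on the log2 scale. The pairing of libraries by experiment was needed for these calls: without the block no gene was called by edgeR, with 351 genes at an unadjusted p below 0.05 against 3355 with it. Of these 3355, 1296 were higher (7.14% of all genes tested) and 2059 lower (11.3%). Leaving out experiment 2 left 4 calls, *Srrm2*, *Cox6b2*, *Ttn* and *Gm8430*, whereas 268 genes were called without experiment 1 (169 of them among the 323) and 173 without experiment 3 (134 among the 323).

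Experiment 2 holds the Srrm2-KD library that stood apart, so the values without it are given here once for the results that follow. All 323 genes had the same sign and an unadjusted p below 0.05 without it, and the log2 fold changes of the called genes named here moved by a median of 0.065 and by at most 0.56 (*Acta2*). In the gene lists described here, *Srrm2* (-1.06, adjusted p = 0.038) and *Cox6b2* (-1.69, adjusted p = 0.016) were the only members still called. Without experiment 2, *Ttn* was at 1.91 (adjusted p = 0.016), *Tagln* at -1.93 (adjusted p = 0.16), *Col6a1* at -1.81 (adjusted p = 0.23), *Krt8* at -1.13 (adjusted p = 0.21), *Dnmt3a* at 0.81 (adjusted p = 0.16) and *Otx2* at 0.82 (adjusted p = 0.26). The list medians were then -0.31 for matrix, -0.22 for SRF and actin, -0.17 for epithelial and mesenchymal, 0.27 for formative and -0.11 for naive genes. Without experiment 2 most genes thus no longer passed the adjusted threshold, while their direction and unadjusted p held. The 323 genes had, however, been called with the same libraries that remain in this fit. That selection favours a shared sign and a small unadjusted p, so neither is a separate test of the calls.

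**Figure D1:**
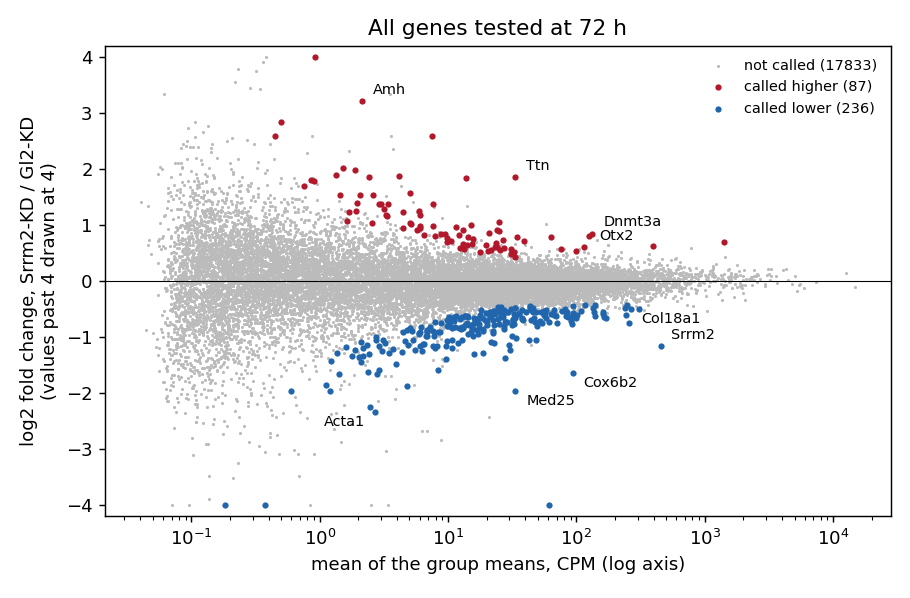
Log2 fold change of Srrm2-KD over Gl2-KD at 72 h against the mean level in CPM (log axis), 1 point per gene tested. Red points are the 87 genes called higher and blue points the 236 called lower; *Amh* lies at 3.21 and *Acta1* at -2.33, while *Col18a1*, with many more counts, lies at -0.49.

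Among the lower genes with the smallest p, *Cox6b2*, the testis-type subunit of cytochrome c oxidase, was first. It had 98.0, 165 and 163 CPM in Gl2-KD and 31.5, 54.9 and 50.2 CPM in Srrm2-KD of experiments 1, 2 and 3. The groups did not overlap, and the log2 fold change was -1.64 ± 0.09 (adjusted p = 0.00077). *Med25*, a subunit of the Mediator complex that links activators to RNA polymerase II, fell from 33.7, 45.2 and 75.6 CPM to 7.89, 7.87 and 30.8 CPM, again without overlap (-1.96 ± 0.21, adjusted p = 0.013). It was the only one of 31 Mediator genes tested that was called (3.23%, against 1.78% of all genes). *Ppm1j*, a protein phosphatase of the PP2C family, had 32.4, 39.6 and 54.7 CPM in the controls and 15.4, 15.5 and 23.0 CPM after knockdown (-1.22 ± 0.10, adjusted p = 0.0051). *Gm8430*, a processed pseudogene on chromosome 6 that was singled out after its values were seen, had 50.1, 78.4 and 225 CPM in Gl2-KD and 2.11, 6.78 and 4.91 CPM in Srrm2-KD (-4.53 ± 0.34, adjusted p = 0.0049), and its reads could belong in part to related copies.

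*Sfrp1*, a secreted Wnt antagonist, fell by 1.05 on the log2 scale, from 50.2 to 70.6 CPM in Gl2-KD to 21.7 to 35.0 CPM in Srrm2-KD. *Ano9*, a TMEM16-family membrane protein, fell by 1.37, and its groups did not overlap. Among enzymes, *Haghl*, a relative of the glyoxalase hydroxyacylglutathione hydrolase, fell by 1.40, *Dcxr*, a dicarbonyl and xylulose reductase, by 1.01 and *Ppox*, which makes protoporphyrin in haem synthesis, by 0.85. The largest adjusted p of these 5 genes was 0.013.

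*Ttn*, which encodes the giant sarcomere protein titin, led the higher genes. It had 38.6, 3.76 and 1.60 CPM in Gl2-KD and 136, 12.5 and 6.75 CPM in Srrm2-KD of experiments 1, 2 and 3. Its level differed between experiments by more than it did between siRNAs, so the groups overlapped, and the change within each experiment was close to the same size (log2 fold change 1.86 ± 0.10, adjusted p = 0.00077). *Capn3*, a calpain that binds titin in muscle, rose from 9.62, 2.58 and 1.26 CPM to 21.1, 7.96 and 3.28 CPM (1.38 ± 0.15, adjusted p = 0.016) and had the same order of experiments. *Gap43*, a growth cone protein of neurons, rose by 1.26 ± 0.18 without overlap, from 3.20 to 3.64 CPM in the controls to 6.97 to 10.2 CPM (adjusted p = 0.026).

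*Amh*, the gene of anti-Müllerian hormone, had the largest change of the named higher genes. It was at 0.349, 0.310 and 0.494 CPM in Gl2-KD and at 5.18, 4.64 and 1.75 CPM in Srrm2-KD of experiments 1, 2 and 3 (3.21 ± 0.43, adjusted p = 0.023). *Amh* starts at 80805243 on the plus strand of chromosome 10, just after the end of the spliceosome gene *Sf3a2* at 80804924 on the same strand. *Sf3a2*, named here for its position, was not called and had a log2 fold change of -0.28 ± 0.09 (adjusted p = 0.13). Whether the reads counted for *Amh* ran on from *Sf3a2* was not tested.

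The other leading higher genes were *Akr1b8*, an aldo-keto reductase (log2 fold change 1.00), the ETS factor gene *Etv1* (0.90), the junction gene *Cgnl1* (0.89), *Nxn*, which encodes the redox protein nucleoredoxin (0.79), and *Tomm34*, which encodes a cochaperone of mitochondrial import (0.61). Their adjusted p ranged from 0.013 for *Akr1b8* to 0.026 for *Tomm34*. *Akr1b8* and *Tomm34* did not overlap between groups, whereas *Etv1*, *Cgnl1* and *Nxn* did.

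**Figure D2:**
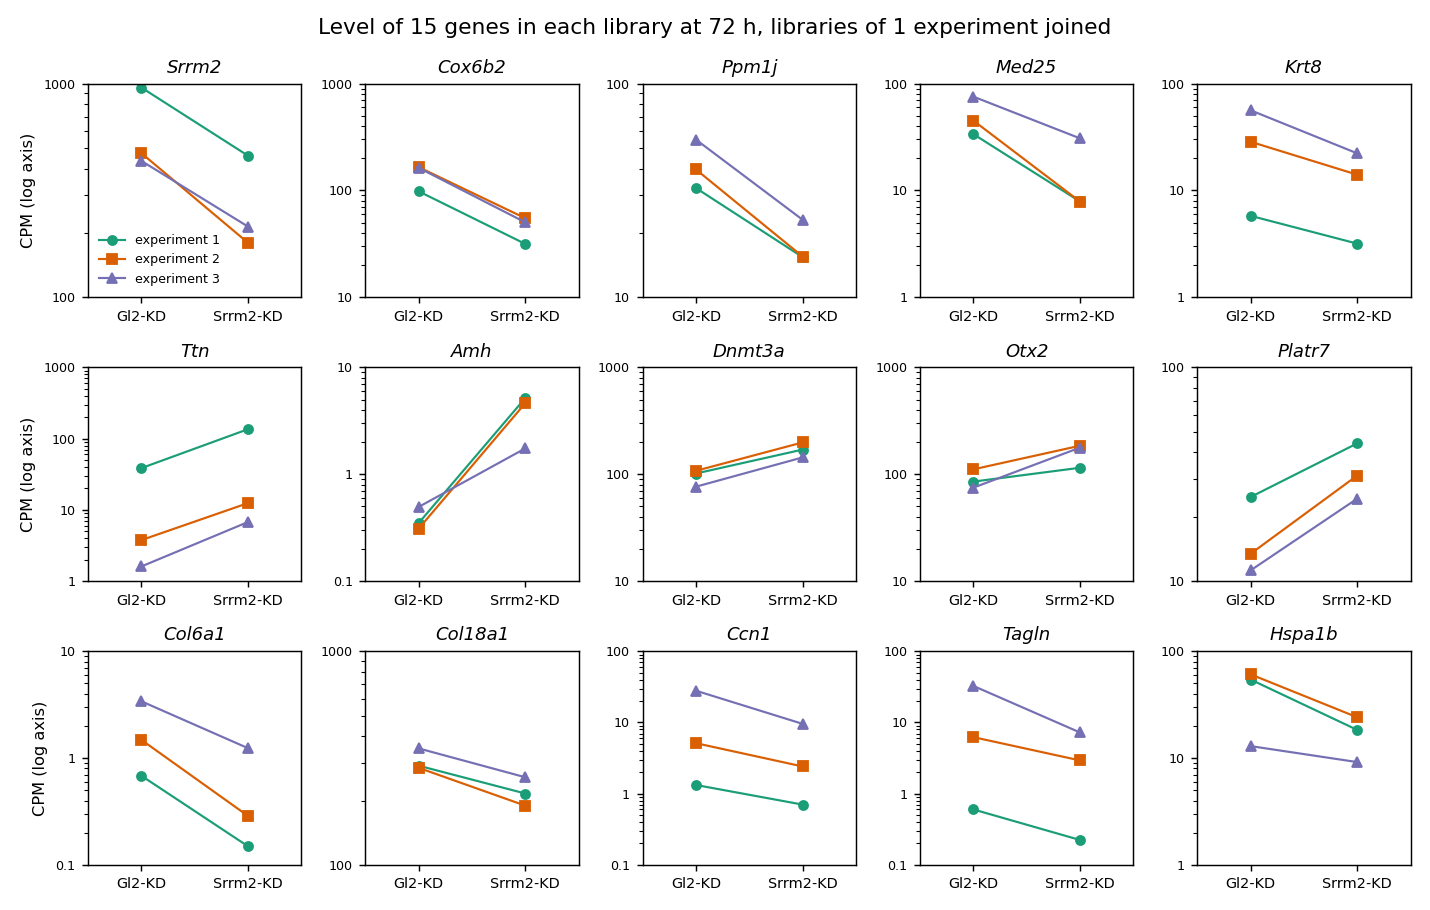
Level in CPM (log axis, with a range of its own for each gene) of 15 genes in the 6 libraries at 72 h, with the Gl2-KD and Srrm2-KD libraries of 1 experiment joined by a line. All lines of a gene slope the same way, while the experiments differ in level, for *Tagln* from 0.601 to 32.7 CPM among the controls. The genes drawn were called by the paired test, so their shared slope is in part a result of that selection.

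In the list of extracellular matrix and integrin genes, all called members were lower. The log2 fold change was negative for 40 of the tested members and positive for 12. Of 52 members tested, 8 were called lower and 0 higher, against 1.78% of all genes in either direction, and the median log2 fold change was -0.28 against -0.02 for all genes tested. At an unadjusted p below 0.05, 23 were lower and 1 was higher, against 11.3% and 7.14% of all genes. The called members were the collagen genes *Col6a1*, *Col4a2*, *Col18a1* and *Col5a1*, the laminin chain *Lama1*, the basement membrane linker nidogen *Nid1*, the matrix glycoprotein *Sparc* and *Thbs1*, which encodes thrombospondin 1. *Col6a1*, a chain of the microfibrillar collagen VI, had 0.682, 1.48 and 3.40 CPM in Gl2-KD and 0.149, 0.287 and 1.24 CPM in Srrm2-KD (-1.97 ± 0.28, adjusted p = 0.026). Its level in Srrm2-KD of experiment 3 exceeded that of the control of experiment 1, so the groups overlapped. *Col4a2*, a chain of basement membrane collagen IV, fell from 3.05, 3.30 and 5.67 CPM to 1.70, 1.45 and 2.09 CPM without overlap (-1.16 ± 0.20, adjusted p = 0.035). *Col18a1*, the precursor of endostatin, was the called collagen with the most counts, at 291, 285 and 351 CPM in Gl2-KD and 216, 189 and 257 CPM in Srrm2-KD (-0.49 ± 0.09, adjusted p = 0.037). *Thbs1* had 0.463, 2.15 and 10.8 CPM in the controls and 0.218, 0.717 and 2.38 CPM after knockdown (-1.66 ± 0.25, adjusted p = 0.027).

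The collagen family as a whole had 4 members called lower and 1 higher of 35 tested (14.3%, against 1.78% of all genes), with a median of -0.29. The member that rose was *Col6a5* (1.17 ± 0.21, adjusted p = 0.041). In the list of syndecans, glypicans, semaphorins and plexins, which anchor or guide cells at the surface, 1 of 31 was called, *Sema6c* (-0.63 ± 0.12, adjusted p = 0.047). The median was -0.24, and -0.13 with offsets for GC content and length, where 0 were called. *Plxnb2*, a semaphorin receptor and the member with the most counts, had a log2 fold change of -0.35 ± 0.10 and was not called (adjusted p = 0.11).

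Targets of serum response factor (SRF) and actin cytoskeleton genes had 5 members called lower and 0 higher of 46. This was 10.9%, against 1.78% of all genes, and the median was -0.13. At an unadjusted p below 0.05, 14 were lower and 0 higher, against 11.3% and 7.14% of all genes. They included *Ccn1*, a matrix-bound growth regulator, the actin-binding protein gene *Tagln* (transgelin) and the actins *Acta1* and *Acta2*. *Ccn1* had 1.32, 5.12 and 27.9 CPM in Gl2-KD and 0.702, 2.41 and 9.56 CPM in Srrm2-KD of experiments 1, 2 and 3 (-1.20 ± 0.17, adjusted p = 0.025). *Tagln* had 0.601, 6.23 and 32.7 CPM against 0.224, 2.93 and 7.25 CPM (-1.59 ± 0.22, adjusted p = 0.026). For both, experiment 3 held the highest and experiment 1 the lowest level in each group, and the knockdown library was the lower of each pair. *Acta1* had 0.154, 1.68 and 12.2 CPM against 0.0994, 0.235 and 1.67 CPM (-2.33 ± 0.41, adjusted p = 0.037).

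SRF binds the CArG box, 2 C, 6 A or T and 2 G, a palindromic pattern that was searched without mismatch in the RefSeq promoter windows of GRCm38, which run from 250 bases before to 50 bases after a gene's start. Of the tested genes with a window, 202 of 12367 (1.63%) held it, as did 10 of the 40 in the SRF and actin list (25%). Of the 5 called members, *Acta1*, *Acta2* and *Ccn1* had a window, and only that of *Acta1* held a match, 73 bases before the start. It is printed with the match in capitals, because it was the only window of a called list member with the SRF pattern:
Acta1, minus strand, chr8:123894726-123895025: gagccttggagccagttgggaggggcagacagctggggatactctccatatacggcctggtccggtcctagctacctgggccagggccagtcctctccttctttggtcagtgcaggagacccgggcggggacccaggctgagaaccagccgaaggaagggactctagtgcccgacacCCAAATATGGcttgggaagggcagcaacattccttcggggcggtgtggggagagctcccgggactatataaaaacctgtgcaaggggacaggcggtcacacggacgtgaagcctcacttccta
Among all called genes, 3 of 176 lower (1.70%) and 2 of 60 higher (3.33%) genes with a window held the pattern.

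Of 29 genes of epithelial and mesenchymal identity, 4 were called lower and 0 higher (13.8%, against 1.78% of all genes), with a median of -0.22. All 4 serve cell contacts or the epithelial skeleton, namely *Krt8* (keratin 8), the tight junction genes *Cldn4* and *Tjp3* and the desmosome gene *Dsp*. *Krt8* had 5.78, 28.6 and 56.3 CPM in Gl2-KD and 3.18, 14.0 and 22.3 CPM in Srrm2-KD (-1.08 ± 0.11, adjusted p = 0.013). *Cldn4* fell from 99.6, 141 and 328 CPM to 65.6, 101 and 224 CPM (-0.55 ± 0.08, adjusted p = 0.030). *Dsp* fell by 0.86 and *Tjp3* fell by 1.28, and for these 2 genes the groups did not overlap. *Krt18*, the partner of *Krt8*, was lower by 0.48 ± 0.11 and was not called (adjusted p = 0.074).

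**Figure D3:**
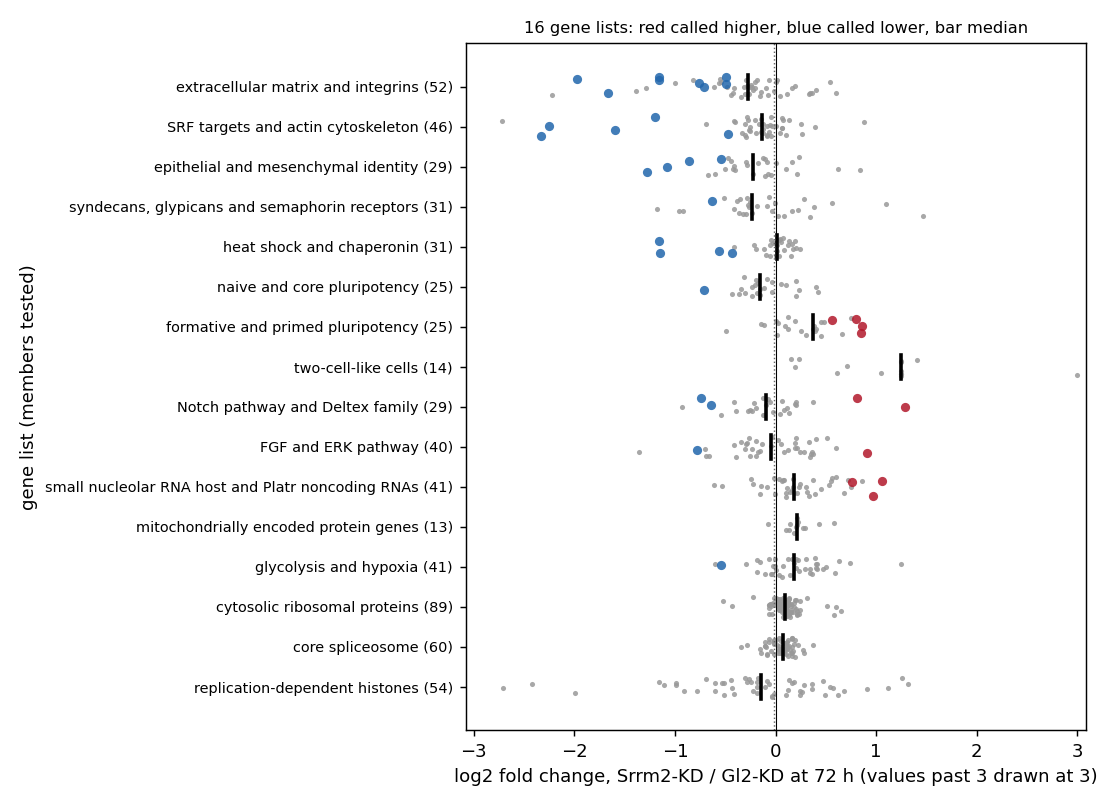
Log2 fold change at 72 h of the members tested in 16 gene lists, 1 point per gene, with genes called higher in red, genes called lower in blue and the list median as a bar. The medians of matrix (-0.28) and epithelial (-0.22) genes lie left of 0 and that of formative genes (0.37) lies right of it; the dotted line is the median of all genes tested (-0.02).

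Of 31 heat shock and chaperonin genes tested, 4 were called lower and 0 higher (12.9%, against 1.78% of all genes). The list's median was nonetheless 0.02, and it went to -0.03 and -0.04 with offsets for GC content and length or without experiment 3. The called genes were the inducible Hsp70 genes *Hspa1a* and *Hspa1b* and the small heat shock genes *Hspb1* and *Hspb8*. *Hspa1b* had 54.4, 60.9 and 13.0 CPM in Gl2-KD and 18.4, 24.1 and 9.17 CPM in Srrm2-KD of experiments 1, 2 and 3 (-1.15 ± 0.18, adjusted p = 0.032). *Hspa1a* moved by the same amount (-1.16 ± 0.20, adjusted p = 0.036), but these are near-identical copies between which the counting may have split reads, so they are not separate observations. *Hspb1* fell from 271, 293 and 283 CPM to 199, 213 and 216 CPM without overlap (-0.43 ± 0.08, adjusted p = 0.047). *Hspb8* fell from 38.1, 70.0 and 95.9 CPM to 25.3, 49.9 and 63.1 CPM (-0.56 ± 0.08, adjusted p = 0.029). With offsets for GC content and length *Hspb8* alone stayed called (-0.57, adjusted p = 0.029), while *Hspa1b* (adjusted p = 0.069), *Hspa1a* (-0.98, adjusted p = 0.080) and *Hspb1* (-0.25, adjusted p = 0.15) did not.

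Heat shock factors bind inverted GAA repeats, searched here as GAANNTTC and as TTCNNGAA, both palindromic and therefore the same on each strand. One of them occurred in the promoter windows of 1718 of 12367 tested genes (13.9%), of 15 of the 26 heat shock and chaperonin genes with a window (57.7%) and of all 4 called ones. The windows of 3 of the 4 are shown, with the matches in capitals, because they hold this pattern and their genes were called lower. That of *Hspa1b* is identical to that of *Hspa1a* at 296 of 300 bases and is not repeated:
Hspa1a, minus strand, chr17:34972107-34972406: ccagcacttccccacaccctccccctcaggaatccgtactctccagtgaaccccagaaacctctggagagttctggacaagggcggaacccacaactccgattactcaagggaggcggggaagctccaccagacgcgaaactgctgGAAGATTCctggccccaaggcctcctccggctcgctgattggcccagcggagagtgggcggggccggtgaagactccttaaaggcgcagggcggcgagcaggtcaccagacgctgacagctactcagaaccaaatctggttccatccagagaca
Hspb1, plus strand, chr5:135887669-135887968: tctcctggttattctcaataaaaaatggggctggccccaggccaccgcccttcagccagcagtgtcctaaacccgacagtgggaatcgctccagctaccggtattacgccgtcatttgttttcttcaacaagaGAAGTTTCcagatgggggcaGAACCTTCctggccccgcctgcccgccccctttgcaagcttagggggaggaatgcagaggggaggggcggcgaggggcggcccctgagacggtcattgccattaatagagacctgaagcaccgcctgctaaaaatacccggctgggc
Hspb8, minus strand, chr5:116422815-116423114: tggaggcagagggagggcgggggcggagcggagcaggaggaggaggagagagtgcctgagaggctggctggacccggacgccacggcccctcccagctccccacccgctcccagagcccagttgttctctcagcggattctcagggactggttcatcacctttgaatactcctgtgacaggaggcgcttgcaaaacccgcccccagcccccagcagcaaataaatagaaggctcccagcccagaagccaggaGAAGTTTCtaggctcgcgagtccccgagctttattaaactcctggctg
The match lies 104 bases before the start in *Hspa1a*, 117 and 97 bases before it in *Hspb1* and at base 3 of the transcript in *Hspb8*. Among all called genes the share was 14.8% of 176 lower and 21.7% of 60 higher genes. The part of heat shock factors in these changes was not tested.

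Of 25 genes of formative and primed pluripotency, 4 were called higher and 0 lower (16%, against 1.78% of all genes), and the median was 0.37. At an unadjusted p below 0.05, 14 were higher and 0 lower, against 7.14% and 11.3% of all genes. *Dnmt3a*, a de novo DNA methyltransferase, had 102, 108 and 76.5 CPM in Gl2-KD and 170, 199 and 144 CPM in Srrm2-KD of experiments 1, 2 and 3 (0.85 ± 0.09, adjusted p = 0.013). *Otx2*, a homeobox factor of the formative state, rose from 85.3, 111 and 74.8 CPM to 115, 185 and 177 CPM (0.80 ± 0.15, adjusted p = 0.039). For both genes every Srrm2-KD library lay above every control. *Lef1*, the Wnt-responsive factor, rose by 0.86 ± 0.13, from 26.3, 15.1 and 4.85 CPM to 38.3, 28.7 and 10.7 CPM (adjusted p = 0.026). *Sox4*, an SRY-box factor, rose by 0.56 ± 0.11 (adjusted p = 0.047). *Fgf5*, a marker of the formative and primed states that was named after its values were seen, had a log2 fold change of 0.12 ± 0.24 (adjusted p = 0.83).

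Of 25 naive and core pluripotency genes 1 was called lower and 0 higher (4%, against 1.78% of all genes), and the median was -0.16. The called gene was the T-box factor *Tbx3*, with 85.1, 46.3 and 61.6 CPM in Gl2-KD and 57.0, 24.3 and 39.4 CPM in Srrm2-KD (-0.72 ± 0.10, adjusted p = 0.025). At an unadjusted p below 0.05, 7 were lower and 2 higher, against 11.3% and 7.14% of all genes. *Tfcp2l1*, a naive factor downstream of LIF, was lower in each experiment (-0.44 ± 0.09, adjusted p = 0.063), and *Pou5f1* and *Dppa5a*, the members with the most counts, had log2 fold changes of -0.09 ± 0.09 and -0.34 ± 0.10 (adjusted p = 0.63 and 0.14). The list of the 2-cell-like state had 14 of its 20 genes tested, with 0 called and a median of 1.25. Many of these are multicopy genes at low counts, and 6 of the 14 are *Gm13691* and copies of it with one and the same estimate. *Zscan4f*, its member with the smallest p, had a log2 fold change of 1.05 ± 0.22 (adjusted p = 0.061).

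In signalling pathways single genes changed in both directions. The Notch and Deltex list had 2 called lower and 2 higher of 29 (13.8%, against 1.78% of all genes). *Dtx3*, a Deltex ubiquitin ligase, fell from 70.5, 78.6 and 114 CPM to 41.4, 50.2 and 64.6 CPM without overlap (-0.75 ± 0.09, adjusted p = 0.017). The Notch target *Hes1* fell by 0.64 ± 0.10, whereas the coactivator *Maml2* rose by 1.29 ± 0.20 and the Deltex ligase *Dtx3l* by 0.81 ± 0.15. In the FGF and ERK list, the ligand gene *Fgf17* fell by 0.78 ± 0.10 and the ETS factor *Etv1* rose by 0.90 ± 0.11, the only called genes of 40. In the Wnt list of 31, the coreceptor *Lrp5* fell by 0.74 ± 0.11 and *Lef1* rose. The Nodal and activin list of 16 had 1 call, the SMAD partner *Foxh1* (-0.52 ± 0.10), and that of LIF, JAK and STAT3, also of 16, had *Pim1*, a kinase gene induced by STAT3 (-0.66 ± 0.13, adjusted p = 0.046). Of 18 BMP and Id genes none was called by edgeR, with 3 at an unadjusted p below 0.05 and 3 called by DESeq2. Shares called were 5% of the FGF and ERK list, 6.45% of the Wnt list and 6.25% each of the Nodal and LIF lists.

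The lists of other lineages were short. Their shares called were 25% (fibroblast), 23.1% (primitive endoderm), 22.2% (trophectoderm), 11.1% (neuroectoderm and neuronal) and 0% (mesoderm), against 1.78% of all genes. Of 13 primitive endoderm genes tested, 3 were called lower, *Col4a2*, *Lama1* and *Sparc*, which are matrix genes that other lists also hold, and the transcription factors *Gata6* and *Gata4* of this lineage were not called (0.24 ± 0.54 and -0.80 ± 0.46). Of 9 trophectoderm genes, *Krt8* and the TEA-domain factor *Tead4* were called lower, and *Tead4* had a log2 fold change of -0.52 ± 0.09 (adjusted p = 0.041). The summed level of 7 trophectoderm markers was 111 to 220 CPM in Gl2-KD and 82.1 to 140 CPM in Srrm2-KD, and *Cdx2*, *Elf5* and *Hand1* were under 1 CPM in all 6 libraries. Of 8 genes of the wider fibroblast list *Tagln* and *Acta2* were called, which the actin list also holds, while the summed level of the 9 fibroblast markers was 7.51 to 28.2 CPM in Gl2-KD and 7 to 27.5 CPM in Srrm2-KD. No mesoderm gene of 9 was called by edgeR, with 1 at an unadjusted p below 0.05 and 0 called by DESeq2. Of 18 neuroectoderm and neuronal genes, *Gap43* was called higher and *Ptprn*, a receptor-type phosphatase of secretory granules, lower (-1.16 ± 0.17, adjusted p = 0.026). The part of other cell types in these results was not tested.

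In the list of small nucleolar RNA hosts and Platr transcripts, which are named for their link to pluripotency, 3 of 41 were called higher and 0 lower. This was 7.32%, against 1.78% of all genes. The median was 0.19, and 0.10 with offsets for GC content and length, where 2 were called. *Platr7* had 24.7, 13.4 and 11.2 CPM in Gl2-KD and 44.1, 31.2 and 24.3 CPM in Srrm2-KD (1.05 ± 0.10, adjusted p = 0.013). *Platr4* rose by 0.76 ± 0.11 and *Platr27* by 0.97 ± 0.15, the latter without overlap. Of all 515 lincRNA genes tested, 6 were called higher and 0 lower, against 67 higher and 229 lower of 14926 protein-coding genes. The share of lincRNA genes called higher was above the 0.479% of all genes. Their share called in either direction was below the 1.78% of all genes. Zinc finger (Zfp) genes had 4 called higher and 1 lower of 372 (1.34%, below the 1.78% of all genes), with a median of 0.11. At an unadjusted p below 0.05, 71 of them were higher and 13 lower, against 1296 and 2059 of all 18156 genes. *Zfp948* rose by 0.53 ± 0.09 and *Zfp988* by 0.54 ± 0.10, and *Zfp580* fell by 1.27 ± 0.17. The median GC content of the Zfp genes was 44.3%. With offsets for GC content and length, their median was 0.07 and 2 were called by edgeR. *Zfp948*, *Zfp988* and *Zfp580* were then not called (adjusted p = 0.053, 0.052 and 0.057).

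None of 60 core spliceosome genes was called by edgeR, with 7 at an unadjusted p below 0.05 and 3 called by DESeq2, and the median was 0.07. *Sf3b3* and *Prpf8*, the members with the most counts, encode subunits of the U2 and U5 particles and had log2 fold changes of 0.38 ± 0.09 and 0.16 ± 0.10 (adjusted p = 0.074 and 0.43). Of 54 splicing regulators 1 was called (1.85%, near the 1.78% of all genes), the RNA-binding protein gene *Celf5* (-0.54 ± 0.10, adjusted p = 0.045). Of 22 SRRM and nuclear speckle genes *Srrm2* alone was called (4.55%). In the same test none of 19 nonsense-mediated decay genes was called, with 2 at an unadjusted p below 0.05 and 1 called by DESeq2.

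Translation, protein turnover and energy genes showed few calls. None of 89 cytosolic ribosomal protein genes (median 0.09, and -0.05 without experiment 2), 77 mitochondrial ribosomal protein genes (0.10) or 46 proteasome genes (0.11) was called by edgeR, with 5, 8 and 6 at an unadjusted p below 0.05 and 4, 3 and 1 called by DESeq2. Within experiment 2 the medians of these lists were 0.32, 0.24 and 0.28, against -0.04 to 0.08 within experiments 1 and 3. All 13 mitochondrially encoded protein genes were tested and none was called by edgeR, with 5 at an unadjusted p below 0.05 and 3 called by DESeq2. Their median was 0.21, and 0.037 with offsets for GC content and length. Of 41 glycolysis and hypoxia genes, 1 was called (2.44%, against 1.78% of all genes), *Hk1*, the first enzyme of glycolysis (-0.55 ± 0.09, adjusted p = 0.035). The list's median was nonetheless 0.18, and 11 members were higher at an unadjusted p below 0.05. *Ass1*, the arginine synthesis enzyme, fell from 193, 202 and 186 CPM to 145, 124 and 120 CPM without overlap (-0.58 ± 0.09, adjusted p = 0.032), and *Stc2*, a stress-induced secreted glycoprotein, rose from 18.0, 20.7 and 21.2 CPM to 25.7, 31.3 and 45.2 CPM (0.73 ± 0.12, adjusted p = 0.035). Both are in the list of ATF4 targets and amino acid response, which had no other call among 39 genes (5.13% called). *Eif4g3*, a scaffold of translation initiation, fell by 0.66 ± 0.10 (adjusted p = 0.030) and was the only call of 53 translation factors (1.89%). The lysosomal hexosaminidase *Hexa* and the sialidase *Neu1* fell by 0.57 each, the 2 calls of 49 lysosome and autophagy genes (4.08%, against 1.78% of all genes).

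*Spc24*, a subunit of the NDC80 kinetochore complex, fell by 0.51 ± 0.09 and was the only call of 53 mitosis genes (1.89%). The cyclin gene *Ccnd3* (-0.43 ± 0.08) was the only one of 52 replication and G1/S genes (1.92%). Both shares were near the 1.78% of all genes. *Ankle1*, an endonuclease, and *Mad2l2*, a subunit of translesion polymerase zeta, were the calls of 57 DNA repair genes (3.51%, against 1.78% of all genes). Their log2 fold changes were -0.89 and -0.46. The histone demethylase *Kdm6b* fell by 0.59 ± 0.10 (adjusted p = 0.038). None of 54 replication-dependent histone genes was called by edgeR, with 3 at an unadjusted p below 0.05 and 1 called by DESeq2; polyA+ libraries hold little of these transcripts. The interferon list of 37 had 1 call (2.7%, against 1.78% of all genes), the nucleic acid sensor *Zbp1* (1.04 ± 0.20, adjusted p = 0.047). The median of that list was 0.04. *Ddx60*, which was not among its calls, belongs to the family of DEAD and DEAH helicases. It rose by 1.89 ± 0.34 (adjusted p = 0.038) and was the only call of 53 genes of that family (1.89%).

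Solute carriers had 4 called lower and 2 higher of 288 (2.08%, near the 1.78% of all genes, median -0.06), with the citrate carrier *Slc25a1* lower by 0.66 ± 0.08, from 154, 227 and 247 CPM to 99.5, 141 and 155 CPM (adjusted p = 0.022). *Slc5a4b*, of the glucose cotransporter family, rose by 1.99 ± 0.29. Of 69 Rab genes 2 were called (2.9%), both lower, the vesicle GTPases *Rab26* and *Rab24*, with log2 fold changes of -1.30 and -0.68. Of 31 myosin genes 2 were called (6.45%), with *Myh7b* lower by 0.79 ± 0.11 and the embryonic skeletal myosin *Myh3* higher by 1.18 ± 0.22.

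The called genes differed from the rest in base composition. The longest transcript had a median GC content of 56.7% in the 236 lower genes, 47.5% in the 87 higher genes and 49.6% in all genes tested. When the genes were split by GC content into 5 groups of equal size, the group with the highest content had 141 genes called lower and 8 higher, and that with the lowest had 4 lower and 22 higher. The gradient was not the same in each experiment: between these groups the median log2 ratio went from 0.14 to -0.19 in experiment 3 and from 0.08 to -0.19 in experiment 2, but from -0.03 to -0.04 in experiment 1. With offsets for GC content and length in each library, 154 genes were called (49 higher and 105 lower), of which 126 were among the 323. *Dnmt3a*, *Krt8*, *Ccn1*, *Tagln* and *Col6a1* were among these, and *Otx2* and *Col18a1* were not. *Otx2* was at 0.73 with the offsets against 0.80 without them (adjusted p = 0.060), and *Col18a1* at -0.19 against -0.49 (adjusted p = 0.19). The matrix list had 3 calls in place of 8, the SRF and actin list 2 in place of 5, and the epithelial and formative lists 3 each in place of 4. The median of the matrix list was -0.20 and that of the formative list 0.44 with these offsets. The part of GC content in the results was not tested in any other way.

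**Figure D4:**
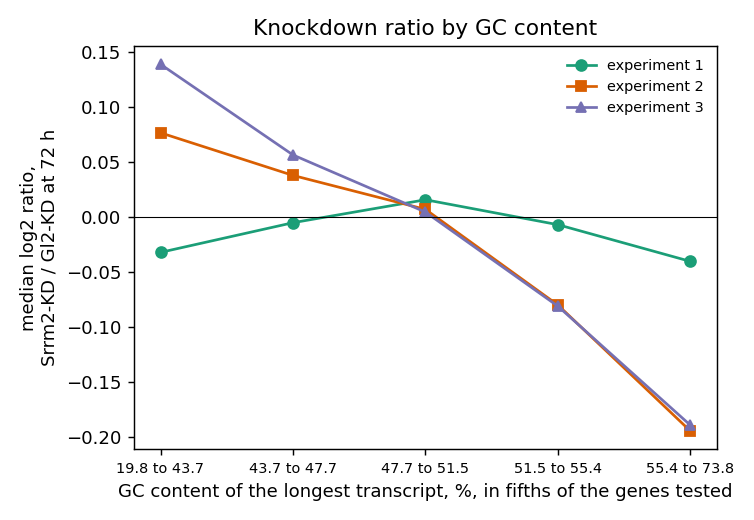
Median log2 ratio of Srrm2-KD over Gl2-KD at 72 h within each experiment, for genes in 5 groups of equal size by GC content of the longest transcript. The medians fall with GC content in experiments 2 and 3, to -0.19 in the highest group, and stay between -0.04 and 0.02 in experiment 1.

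The 24 h libraries, which have controls of their own, were not used for the calls at 72 h. At 24 h, 229 of the 236 lower genes (97.0%) and 85 of the 87 higher genes (97.7%) had the same sign as at 72 h, against 70.7% of all genes tested. The lower genes had a median log2 fold change of -0.37 at 24 h and -0.76 at 72 h, and the higher genes of 0.40 and 0.91. The genes were selected on the 72 h values, so the medians at 72 h are not free of that selection. *Srrm2* had -1.22 ± 0.14 at 24 h and -1.16 ± 0.10 at 72 h. *Cox6b2* (-1.30 ± 0.23), *Ppm1j* (-1.22 ± 0.18), *Med25* (-1.72 ± 0.41) and *Haghl* (-1.42 ± 0.20) at 24 h were within 0.4 of their values at 72 h. *Ttn* had 0.42 ± 0.17 at 24 h against 1.86 ± 0.10 at 72 h, *Dnmt3a* 0.28 ± 0.11 against 0.85 ± 0.09, and *Lef1* 0.14 ± 0.18 against 0.86 ± 0.13. *Eif4g3* was at 0.01 ± 0.09 and *Stc2* at -0.14 ± 0.12 at 24 h. None of the genes named in this paragraph passed an adjusted p of 0.05 at 24 h by edgeR in this fit. The adjusted p at 24 h was 0.17 for *Srrm2*, 0.28 for *Cox6b2*, 0.23 for *Ppm1j* and *Haghl* and 0.37 for *Med25*. It was 0.65 or more for the others.

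The test of the difference itself, fitted to all 12 libraries with experiment and time point together as the block, called 0 of 19410 genes by edgeR, with 875 at an unadjusted p below 0.05. limma-voom called 0 and DESeq2 7. By DESeq2 these included *Ttn* (difference 1.44, adjusted p = 5.3e-07), *Stc2* (0.89, adjusted p = 0.0012) and *Eif4g3* (-0.66, adjusted p = 0.0069), whose adjusted p by edgeR was 0.97 each.

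**Figure D5:**
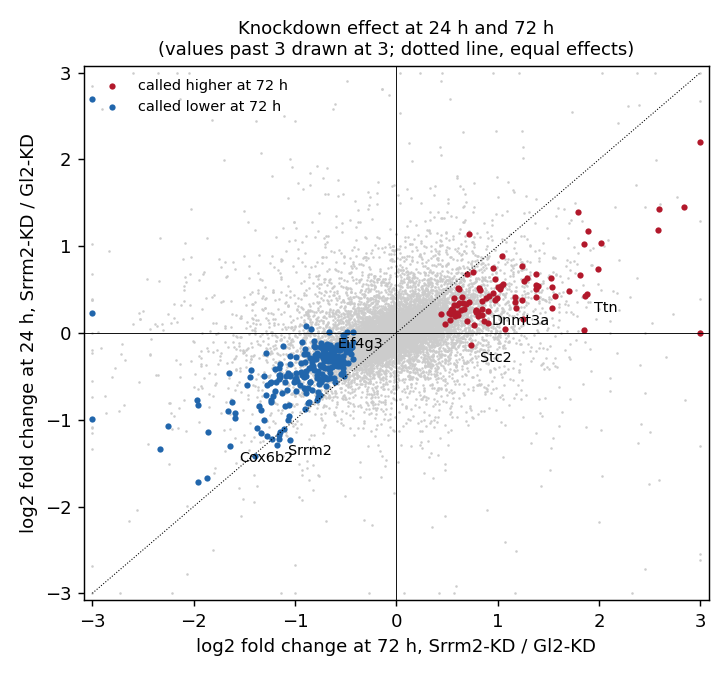
Log2 fold change of Srrm2-KD over Gl2-KD at 24 h against that at 72 h, 1 point per gene, with the genes called at 72 h in colour and a dotted line where both are equal. Most called genes lie nearer to 0 at 24 h than at 72 h, *Srrm2* lies near the line, and *Stc2* and *Eif4g3* lie near 0 at 24 h.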

How the data were processed

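E14tg2a.4 polyA+ RNA was sequenced as stranded 100-bp paired-end reads. The authors pseudo-aligned the reads to the GENCODE M24 transcriptome with Kallisto 0.46.1 and deposited estimated counts, 1 value per gene and library, not normalized for library size. The way transcript estimates became gene values is not stated in the sources used here. The estimated counts were rounded to whole numbers.

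Of 42450 genes, 18156 passed edgeR's filterByExpr (minimum count 10, minimum total 15) in the 6 libraries at 72 h, and 18077 of these matched GENCODE M21 (GRCm38) for symbols, positions, length and GC content. Counts were scaled by TMM and tested in R 4.3.3 with edgeR 4.0.16 (glmQLFit with legacy=TRUE, glmQLFTest), with the experiment as a block and 2 residual degrees of freedom, the common biological coefficient of variation being 0.176. A gene passed when its p, corrected by Benjamini-Hochberg over every tested gene, was under 0.05. Standard errors are the log2 fold change over the root of F. CPM are counts scaled to a common library size by TMM, and ratios within an experiment add 0.1 CPM. Values at 24 h come from the fit of all 12 libraries with experiment and time point together as the block.

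Labels give the experiment number but not whether a number marks a shared day; the study states independent biological replicates. After removal of group means, Gl2-KD and Srrm2-KD libraries of the same number correlated across genes at 0.760, 0.336 and 0.586, and those of different numbers at -0.647 to 0.119, so the numbers were taken to pair the libraries.

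Genes were described in 51 lists of pathways or markers and 24 families. Members, lists, tests and the naming rule were chosen with earlier results of these data known. The rule named *Srrm2*, the 12 called genes of lowest p in each direction that moved alike in all 3 experiments (predicted and Rik genes left out), up to 4 called members of each list, and for lists with fewer than 2 calls the members with the most counts. Others named, such as *Sf3a2*, *Fgf5*, *Gm8430* and the remaining called or marker genes of a list, were chosen after their values were seen. Alternatives were DESeq2 1.42.0, limma 3.58.1 with voom, other scalings, filters and blocks, and each experiment left out. The tests were also run on counts simulated from the fit to the 72 h libraries, in which the changed genes were set in advance. That run is no check of the calls in the measured data. Some genes that the rule named are not reported here. Splicing was not analysed here.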

Additional observations from a re-analysis of the deposited data

How the results depend on the processing

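The libraries were paired by experiment number, and this block decided the number of calls at 72 h: with it 323 genes were called, without the replicate block 0, and 0 also when the 12 libraries were fitted with the experiment alone as block, where the libraries of both time points share 1 level per experiment. *Srrm2* then had log2 fold changes of -1.13 (adjusted p = 1) and -1.16 (adjusted p = 0.099). Fits that called more were DESeq2 (1434), a minimum of 10 counts in every library (1167), no filter (1137), legacy=FALSE (788), limma-voom (779), 12 libraries with a block per experiment and time (724) and robust=TRUE (721). Fits that called fewer were library totals without TMM (175), offsets for GC content and length, chosen after the data were seen (154), and a log2 fold change of at least 1 added to the call (103). RLE factors gave 315 and unrounded counts 323. The cause of these shifts was not tested. DESeq2 shared 318 of the 323 calls, limma-voom 323 and library totals 175. Without 1 experiment the count ranged from 4 (experiment 2) to 268 (experiment 1), and *Srrm2* from -1.23 to -1.06.

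The difference between 72 h and 24 h gave 0 calls with edgeR, 7 with DESeq2 and 0 to 2 without 1 experiment (*Gm10259* without experiment 1, *Ttn* and *Gm14303* without experiment 3). Of the 102 genes named in the report, 97 to 102 were fitted under each of 16 settings, and 4 changed sign under any: *Pou5f1* with GC and length offsets (0.01), *Gata6* (-0.09 to 0.48 without 1 experiment), *Fgf5* (-0.12 to 0.51, with -0.05 without experiment 3) and *Elf5* (-0.13 to 0.78), none of them called. The medians of the matrix (-0.38 to -0.20), actin (-0.22 to -0.10), epithelial (-0.32 to -0.17), naive (-0.22 to -0.09) and formative lists (0.27 to 0.48) kept their sign under all 16. With 3 experiments and 2 residual degrees of freedom, changes of low-count genes are the least certain. The block takes up differences in level between experiments. The p-values therefore measure how much the change between paired libraries varied across the 3 experiments, all in 1 cell line. The variance behind them was moderated across genes (6.09 prior degrees of freedom).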
